A study of Mus musculus with 10 samples.

Results

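Tex13b, Tro and Itpka are 3 genes, of 54456 in the table, that were highest in the mouse embryonic stem cell line conv-dSVA_D, described here across 7 RNA-seq libraries. They were chosen by their normalized counts, because both conv-dSVA_D libraries stood above the other libraries, so those differences are a description and carry no test. All 3 passed the filter on low values, a mean of at least 10 normalized counts, together with 15240 genes in all. Values are normalized counts: reads per gene divided by 1 size factor per library.

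The cells were C57BL/6J embryonic stem cells, cultured on gelatin with serum and LIF plus 2 inhibitors, PD0325901 (of MEK) and CHIR99021 (of GSK3). The study rebuilt in mouse cells an allele of X-linked dystonia parkinsonism, a disease tied to an SVA retrotransposon inserted in the human gene TAF1. Every converted line shares the genotype entries loxP[Taf1_i24], pSpCas9[null], pSpCas9GFP[null] and LPSwapinRed_pUC19[Taf1_3_4], a "Taf1_humanization" allele of mousified human TAF1 marked converted, and pCAGiCre[null]. The labels add dSVA2 for conv-dSVA_D (2 libraries), SVAdel for conv-dSVA_F (2 libraries) and both for conv-dSVA_F&D (2 libraries). The wild-type line MK6 (1 library) carries none of these entries. The other 3 samples of the series, a library from before conversion and a pair from striatum, were not analysed here. Each genotype has 1 line name with no clone given, so effects of genotype and of the line or clone cannot be told apart. No label states separate cultures for the replicates, so p-values here measure only how these samples vary, a spread that may be technical.

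Tex13b belongs to a small X-linked family of testis-expressed genes, known from transcripts of male germ cells. Tro encodes trophinin, a member of the MAGE gene family of type II, named for an adhesion protein studied in human trophoblast and endometrial cells. Itpka encodes an inositol 1,4,5-trisphosphate 3-kinase: the enzyme phosphorylates IP3, the messenger that opens calcium channels of the endoplasmic reticulum, and so ends that signal. Its protein also binds filamentous actin and is best known from dendritic spines of neurons.

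In GRCm38, Tex13b (ENSMUSG00000042386) lies on the minus strand of chromosome X from 140808307 to 140813433, with 4 exons and 2 transcripts. Tro (ENSMUSG00000025272) lies on the minus strand of chromosome X from 150645304 to 150657583, with 13 exons and 11 transcripts. Itpka (ENSMUSG00000027296) lies on the plus strand of chromosome 2 from 119742337 to 119751263, with 7 exons and 1 transcript. None of the 3 overlapped another annotated gene.

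Promoter sequences from RefSeq (GRCm38.p6) are shown for Tex13b and Itpka because these genes had a promoter entry there. Each runs from 250 bases before the gene's start to 50 after it, 5′ to 3′ on the gene's strand, with CpG sites in capitals. The source held no entry for Tro, so its promoter is not shown. The Tex13b window is chrX:140813384-140813683 (minus strand) and the Itpka window is chr2:119742087-119742386 (plus strand).
Tex13b: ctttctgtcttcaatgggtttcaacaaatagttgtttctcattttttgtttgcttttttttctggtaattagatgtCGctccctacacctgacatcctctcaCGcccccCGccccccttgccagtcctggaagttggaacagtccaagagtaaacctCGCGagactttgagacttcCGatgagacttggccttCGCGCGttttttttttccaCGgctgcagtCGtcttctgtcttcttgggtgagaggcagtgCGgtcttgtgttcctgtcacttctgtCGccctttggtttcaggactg
Itpka: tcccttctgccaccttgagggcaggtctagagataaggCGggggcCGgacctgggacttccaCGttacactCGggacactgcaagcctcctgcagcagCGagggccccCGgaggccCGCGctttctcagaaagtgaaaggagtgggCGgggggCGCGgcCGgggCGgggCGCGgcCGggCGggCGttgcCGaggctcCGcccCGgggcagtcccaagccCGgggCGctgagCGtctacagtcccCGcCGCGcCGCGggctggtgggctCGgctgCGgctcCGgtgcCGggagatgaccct

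The Tex13b window held 13 CpG sites and 49.0% G and C. The Itpka window held 33 CpG sites and 73.7% G and C. Over 32817 promoter windows of the same length the medians were 7 sites and 52.7%, and 62.1% of windows held fewer CpG sites than Tex13b and 91.4% fewer than Itpka. Motifs searched on both strands were the E-box CACGTG (in 7.15% of all windows), the E2F-type GGCGGGAA (2.19%), the GC box GGGCGG (35.6%), CCAAT (37.4%) and TATAAA (13.6%). The GC box was matched in both windows, 1 time in Tex13b and 4 times in Itpka, and the other motifs were matched in neither. The E2F-type letters overlap in part with those of the GC box. A match describes these letters and is not a binding site.

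Libraries held between 16588467 and 26562418 reads assigned to genes, the fewest in conv-dSVA_F&D replicate 2. A count of 0 allows up to 3 reads, which is 2.45 to 4.18 normalized counts depending on the library, for counting error only. The edited gene Taf1, the largest subunit of TFIID, had 362 and 418 normalized counts in conv-dSVA_D, 501 and 589 for conv-dSVA_F, 1116 and 1088 for conv-dSVA_F&D, and 2898 for the wild type. The sources used here do not say if reads from the human-derived exons count towards Taf1. Embryonic stem cell markers, 8 of 8 above the filter, summed to 156821 and 160466 normalized counts in conv-dSVA_D, 126019 and 130083 for conv-dSVA_F, 142994 and 136243 for conv-dSVA_F&D, and 145858 for the wild type. The labelled cell type was thus matched by its markers in every library. In bulk RNA, fewer cells of a type and less RNA per cell cannot be told apart.

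Tex13b had 558.84 and 556.78 normalized counts in conv-dSVA_D replicates 1 and 2, 75.73 and 64.99 for conv-dSVA_F, 106.21 and 39.0 for conv-dSVA_F&D, and 72.04 for the wild type. Both conv-dSVA_D libraries were far above the other 5, which ranged from 39.0 to 106.21 with their lines interleaved. Behind these values were 582 and 682 reads in conv-dSVA_D, 89 and 64 for conv-dSVA_F, 116 and 28 for conv-dSVA_F&D, and 66 for the wild type. The conv-dSVA_F&D replicates differed by 2.72-fold, and their exact Poisson 95% intervals, 87.8 to 127 and 25.9 to 56.4 normalized counts, did not overlap. The intervals of the conv-dSVA_D replicates, 514 to 606 and 516 to 600.2, did.

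Group means of Tex13b were 558 ± 1.46 for conv-dSVA_D, 70.4 ± 7.59 for conv-dSVA_F and 72.6 ± 47.5 for conv-dSVA_F&D (SD, n = 2 each), beside 72.0 for the single wild-type library. In order of level conv-dSVA_D came first, and conv-dSVA_F&D, the wild type and conv-dSVA_F, which followed, were not separated beyond the spread between libraries.

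Tro had 819.05 and 888.24 normalized counts in conv-dSVA_D, 264.63 and 387.94 for conv-dSVA_F, 310.39 and 296.72 for conv-dSVA_F&D, and 280.51 for the wild type. The conv-dSVA_D libraries were again above all 5 others, and the highest of those was conv-dSVA_F replicate 2. Means were 854 ± 48.9 for conv-dSVA_D, 326 ± 87.2 for conv-dSVA_F and 304 ± 9.67 for conv-dSVA_F&D (SD, n = 2 each). Of the 3 genes Tro varied least outside conv-dSVA_D, by 1.47-fold from the lowest to the highest of 5 libraries, and its wild-type value lay within the range of conv-dSVA_F.

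Itpka had 1145.52 and 1149.48 normalized counts in conv-dSVA_D, 296.11 and 397.08 for conv-dSVA_F, 531.05 and 415.12 for conv-dSVA_F&D, and 593.77 for the wild type. Unlike Tex13b and Tro, Itpka had its next highest value in the wild type, above all 4 libraries of conv-dSVA_F and conv-dSVA_F&D. Means were 1148 ± 2.80 for conv-dSVA_D, 347 ± 71.4 for conv-dSVA_F and 473 ± 82.0 for conv-dSVA_F&D (SD, n = 2 each). The conv-dSVA_F and conv-dSVA_F&D libraries did not overlap, with conv-dSVA_F the lowest, as in 23.8% of all genes for both conv-dSVA_F&D libraries above both of conv-dSVA_F.

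Per kilobase of exon, the scale on which genes can be compared, Itpka was the most abundant in conv-dSVA_D at 631 normalized counts per kilobase, against 327 for the wild type. Tex13b stood at 199 per kilobase in conv-dSVA_D and 25.7 for the wild type. Tro stood at 117 per kilobase in conv-dSVA_D and 38.4 for the wild type. Tex13b therefore ranked above Tro in conv-dSVA_D and below it in the wild type on this scale.

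**Figure D1:**
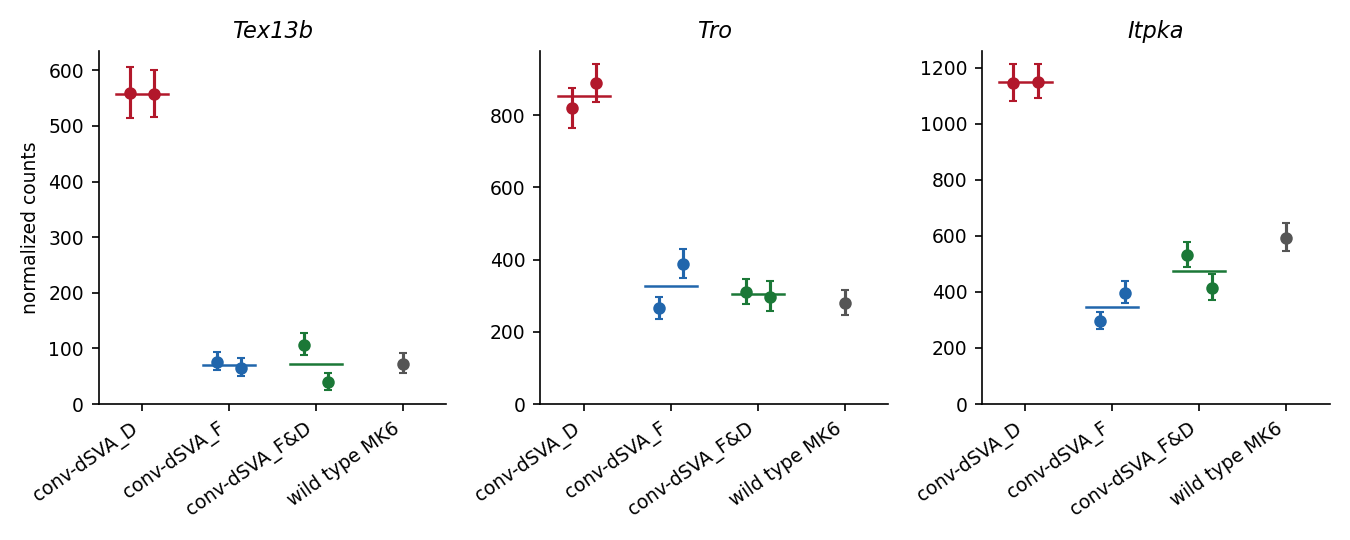
Normalized counts of Tex13b, Tro and Itpka (vertical axis) in each library, by line, with conv-dSVA_D at the left and the wild type at the right. Points are libraries with exact Poisson 95% intervals, and horizontal lines are means of 2 libraries. Both conv-dSVA_D points lie above every other point for each gene, and the wild-type point of Itpka (593.77) is the highest of the remaining 5.

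All 3 genes were also above the wild type in both conv-dSVA_D libraries, by very different factors. Tex13b was 7.76-fold and 7.73-fold above the wild-type library in conv-dSVA_D replicates 1 and 2. Tro was 2.92-fold and 3.17-fold above it, and Itpka 1.93-fold and 1.94-fold. Ordered by the lower of the paired ratios, they held ranks 22, 153 and 523 of 15240 genes. Among all genes, 40.3% had both conv-dSVA_D libraries above the wild type, 8.55% at least 1.5-fold, 3.06% at least 2-fold and 0.919% at least 3-fold. Tex13b thus passed the 3-fold mark and Tro the 2-fold mark in both libraries, while Itpka passed the 1.5-fold mark and fell just short of 2-fold. The rule used these values, so nothing more is read from them.

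On the log2(normalized count + 1) scale, which understates changes of low genes, conv-dSVA_D minus wild type was 2.94 ± 0.52 for Tex13b, 1.60 ± 0.26 for Tro and 0.95 ± 0.24 for Itpka (± SE from limma). Conv-dSVA_D minus conv-dSVA_F was 2.97 ± 0.42, 1.41 ± 0.21 and 1.74 ± 0.19 for Tex13b, Tro and Itpka in that order. Conv-dSVA_D minus conv-dSVA_F&D was 3.09 ± 0.42, 1.49 ± 0.21 and 1.29 ± 0.19 in the same order. For Tex13b and Tro the distance was thus similar whichever line conv-dSVA_D was set against, and for Itpka it was smallest against the wild type. These 3 comparisons share the conv-dSVA_D libraries and are not independent. For its 1 library, the wild type was given the spread of the converted lines.

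The contrasts without conv-dSVA_D were not used to choose the genes and could be tested. The test was limma's, two-sided, with Benjamini-Hochberg adjustment over 15240 genes. In conv-dSVA_F&D minus conv-dSVA_F, 3.92% of all genes passed an adjusted p of 0.05 (1.71% higher, 2.21% lower), and none of the 3 did. The log2 differences were -0.12 ± 0.42 for Tex13b (limma adjusted p = 0.902, 95% interval -1.07 to 0.83) and -0.08 ± 0.21 for Tro (adjusted p = 0.871, -0.55 to 0.39). Itpka stood at 0.45 ± 0.19 (limma adjusted p = 0.222, unadjusted 0.0423, 95% interval 0.02 to 0.89), with higher values in 2 of 2 conv-dSVA_F&D libraries.

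Set against the wild type, 1.82% of all genes passed for conv-dSVA_F (1.16% higher, 0.656% lower) and 0.0262% for conv-dSVA_F&D (0.0131% in each direction), and none of the 3 did. In conv-dSVA_F minus wild type, Tex13b stood at -0.04 ± 0.52 (limma adjusted p = 0.98, 95% interval -1.20 to 1.12) and Tro at 0.19 ± 0.26 (adjusted p = 0.741, -0.39 to 0.77). Itpka stood at -0.79 ± 0.24 (limma adjusted p = 0.11, unadjusted 0.00783, 95% interval -1.32 to -0.26), with lower values in 2 of 2 libraries. Both conv-dSVA_F libraries lay below the wild type in 38.7% of all genes. With DESeq2 on the recovered reads this Itpka difference passed (-0.78, adjusted p = 0.047).

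In conv-dSVA_F&D minus wild type, Tex13b stood at -0.16 ± 0.52 (limma adjusted p = 0.914, 95% interval -1.32 to 1.00), Tro at 0.11 ± 0.26 (adjusted p = 0.872, -0.46 to 0.69) and Itpka at -0.34 ± 0.24 (adjusted p = 0.52, -0.87 to 0.19). For Itpka both conv-dSVA_F&D libraries lay below the wild type, as in 36.6% of all genes. Of the 9 tests, 0 passed by limma (2 had an unadjusted p under 0.05), 0 by edgeR and 1 by DESeq2. The intervals of Tex13b against the wild type allow differences of 2-fold in either direction, so differences of that size or smaller were not excluded. The size needed to pass after adjustment, at this depth and number of libraries, was not computed.

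How far the conv-dSVA_D libraries stood apart was also counted over all genes. The rule used these values, so the ranks of the 3 genes restate their choice. In 1271 of 15240 genes (8.34%) both conv-dSVA_D libraries were above the 5 others, and in 10 genes (0.0656%) they were at least 2-fold above. The lower conv-dSVA_D library was 5.24-fold above the highest other library for Tex13b, 2.11-fold for Tro and 1.93-fold for Itpka. These are ranks 2, 10 and 12 among 15240 genes, and 2, 5 and 6 among the 11612 genes with a mean of at least 50. The same count was 1449 genes (9.51%) for conv-dSVA_F, 30 of them 2-fold, and 1259 (8.26%) for conv-dSVA_F&D, 10 of them 2-fold. Having genes highest in both of its libraries was thus common to the 3 lines.

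Among genes with a mean of at least 50, the 5 with the greatest separation in conv-dSVA_D were Fgf2, Tex13b, Tunar, Dnah7b and Tro. Fgf2, a fibroblast growth factor, had 144.99 and 151.85 normalized counts in conv-dSVA_D, 17.87 and 14.22 for conv-dSVA_F, 3.66 and 0 for conv-dSVA_F&D, and 19.65 for the wild type, a separation of 7.38-fold. Tunar, a transcript first described as a noncoding RNA of pluripotent cells, had 293.82 and 344.52 for conv-dSVA_D, 79.98 and 99.52 for conv-dSVA_F, 119.94 and 121.19 for conv-dSVA_F&D, and 116.79 for the wild type (2.42-fold). Dnah7b, a dynein heavy chain gene of cilia, had 234.29 and 128.99 for conv-dSVA_D, 56.16 and 46.71 for conv-dSVA_F, 9.16 and 13.93 for conv-dSVA_F&D, and 31.65 for the wild type (2.30-fold). Only Tex13b and Tro of these 5 lie on chromosome X, which holds 382 of the 11612 genes. Both were chosen by this same separation, so no excess on chromosome X is read from them.

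Below Itpka at 1.93-fold (rank 6) by this ratio stood Zfp422 at 1.85-fold (rank 8) and Padi3 at 1.81-fold (rank 9), with 1 gene of a left-out name type at rank 7. Zfp422 had 490.66 and 609.03 normalized counts in conv-dSVA_D and 213.57 to 264.68 in the 5 other libraries.

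**Figure D2:**
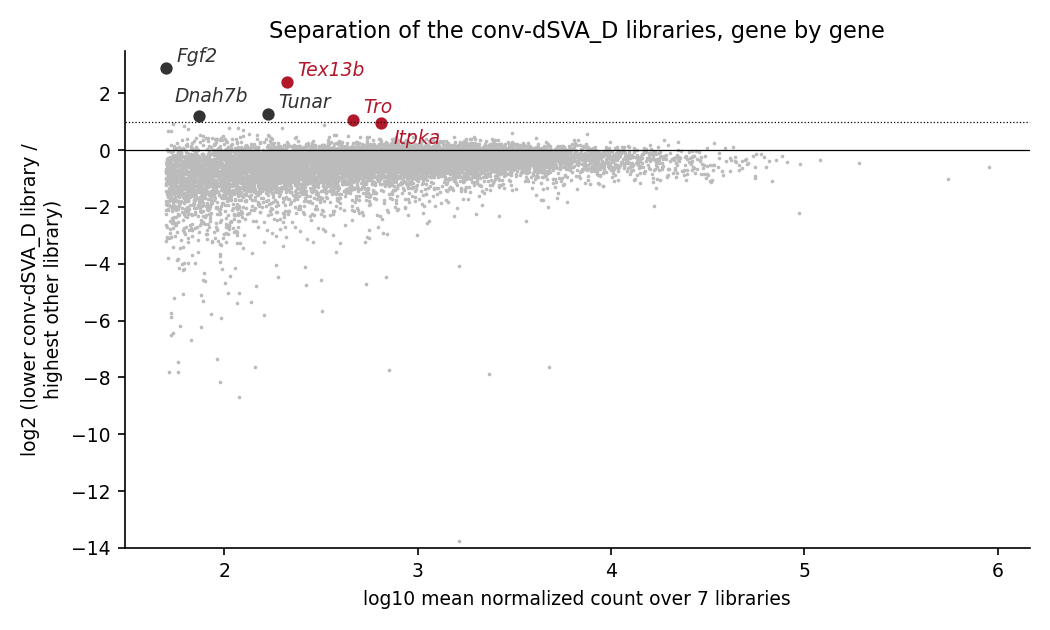
Mean normalized count over 7 libraries (horizontal log axis) against the log2 ratio of the lower conv-dSVA_D library to the highest other library (vertical axis), 1 point per gene with a mean of at least 50. Points above 0 are the 1112 genes with both conv-dSVA_D libraries highest, and the dotted line marks 2-fold, which 5 genes pass. The 6 genes with a conv-dSVA_D library at 0 are not drawn, and Tex13b is the second highest point.

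The pattern over the 7 libraries was compared with that of other genes by Pearson r of log2(normalized count + 1), among genes with a mean of at least 50. With 7 libraries of 4 lines, r mostly reflects whether the conv-dSVA_D libraries are high, and it is given as a description. The genes most like Tex13b were Trmt6 (r = 0.986), Gbe1 (0.978), Lsm14b (0.977), Limd2 (0.970) and Dmtf1 (0.969). Those most like Tro were Nup85 (r = 0.994), Platr6 (0.989), Hdgfl2 (0.982), Zfp819 (0.977) and Mical1 (0.975). Those most like Itpka were Exo1 (r = 0.973), Arhgap19 (0.970), Mcm9 (0.967), Miip (0.965) and Tunar (0.965). Predicted-gene, Riken, clone and pseudogene names were left out of these rankings, and 2 such genes had a higher r with Itpka than Exo1.

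Likeness in shape did not mean likeness in size. Trmt6, a subunit of a transfer RNA methyltransferase, had 2398.59 and 2383.05 normalized counts in conv-dSVA_D, 2025.97 and 1914.29 for conv-dSVA_F, 1999.67 and 1852.74 for conv-dSVA_F&D, and 1909.0 for the wild type. Nup85, a nuclear pore protein gene, had 3276.22 and 3288.43 for conv-dSVA_D, 2850.48 and 2959.29 for conv-dSVA_F, 2844.76 and 2836.22 for conv-dSVA_F&D, and 2835 for the wild type. Exo1, a DNA repair exonuclease gene, had 2861.41 and 2929.22 for conv-dSVA_D, 2127.22 and 2429.17 for conv-dSVA_F, 2485.85 and 2355.62 for conv-dSVA_F&D, and 2632 for the wild type. Between the members, Pearson r and Spearman rho were 0.932 and 0.536 for Tex13b with Tro, 0.900 and 0.643 for Tex13b with Itpka, and 0.888 and 0.679 for Tro with Itpka. The rank correlations, which give the conv-dSVA_D libraries less weight, were lower for each pair.

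Genes beside the 3 did not pass with limma in the comparisons with conv-dSVA_D. Of 35 protein-coding genes that start within 500 kb of a member's start, 29 were tested: 4 beside Tex13b, 7 beside Tro and 18 beside Itpka. In conv-dSVA_D minus wild type, in which 3.61% of all genes passed, 0 of 29 did with limma (4 at unadjusted p under 0.05, none by edgeR, 1 by DESeq2). In conv-dSVA_D minus conv-dSVA_F (background 1.35%), 0 did (7 unadjusted, 0 with edgeR, 3 with DESeq2). In conv-dSVA_D minus conv-dSVA_F&D (background 3.16%), 0 did (4 unadjusted, 0 with edgeR and 0 with DESeq2). Over all 15240 genes, 3084, 2541 and 3022 had an unadjusted p under 0.05 in these comparisons, in that order. These are the background of the unadjusted counts below too. The DESeq2 calls were all higher, beside 469 genes higher against the wild type and 180 against conv-dSVA_F. Leaving out a conv-dSVA_F library gave 1 higher neighbour against the wild type, and leaving out a conv-dSVA_F&D library gave 2.

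The log2 differences of the 29 neighbours from the wild type ranged from -0.74 to 0.82 for conv-dSVA_D, below the 2.94 and 1.60 of Tex13b and Tro. The nearest tested neighbours of Tex13b were Tsc22d3, a glucocorticoid-induced gene at -212.8 kb, towards lower coordinates (-0.54 ± 0.61, limma adjusted p = 0.68), and Psmd10, a proteasome chaperone gene at 143.3 kb on the other side (-0.45 ± 0.24, adjusted p = 0.334). Beside Tro, Apex2, a DNA repair gene at -67.7 kb, had 439.77 and 453.91 normalized counts in conv-dSVA_D and 447.51 for the wild type. On the other side of Tro, Maged2, also of the type II MAGE family and 156.8 kb away, had 495.47 and 468.61 for conv-dSVA_D and 404.94 for the wild type.

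Beside Itpka, the neighbours with the highest values against the wild type did not pass. Rtf1, a PAF1-complex gene at -67.3 kb, stood at 0.82 ± 0.27 (limma adjusted p = 0.125). Ltk, a receptor tyrosine kinase gene 18.1 kb away on the other side, stood at 0.57 ± 1.09 (adjusted p = 0.826) on few reads. Rpap1, 45.2 kb away, stood at 0.79 ± 0.19 (adjusted p = 0.057), with 4638.75 and 4698.34 normalized counts in conv-dSVA_D and 2702.51 for the wild type. Rpap1 and Rtf1 were also above the wild type in all 4 libraries of conv-dSVA_F and conv-dSVA_F&D, in which Itpka was below it.

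In conv-dSVA_F&D minus conv-dSVA_F, DESeq2 called 3 of the 29 neighbours higher, beside 554 of 15240 genes. It called 2 higher in conv-dSVA_F&D minus wild type, beside 334 genes, and 1 lower in conv-dSVA_F minus wild type, beside 459. In the same order, 8, 8 and 2 neighbours had an unadjusted limma p under 0.05, beside 3159, 2451 and 2931 genes. With limma, 2 neighbours passed in these contrasts without conv-dSVA_D. Prps1, a nucleotide synthesis gene beside Tex13b, was lower in conv-dSVA_F than in the wild type (-0.79 ± 0.16, limma adjusted p = 0.0438), beside 0.656% of all genes lower. Fgd1, an exchange factor gene beside Tro, rose in conv-dSVA_F&D relative to conv-dSVA_F (0.77 ± 0.13, adjusted p = 0.0199), beside 1.71% of all genes higher. The Prps1 call was lost when any conv-dSVA_D or conv-dSVA_F library was left out, and the Fgd1 call when either conv-dSVA_F library was. Chromosome medians of the log2 ratio to the wild type were centred, by subtracting each library's median over the 10664 genes used. Those library medians were 0.012 to 0.038. After centring, the median over 358 genes of chromosome X was -0.068 and -0.035 for conv-dSVA_D. It was -0.123 and -0.158 for conv-dSVA_F, and -0.095 and -0.038 for conv-dSVA_F&D. Over 854 genes of chromosome 2 the centred median lay between -0.038 and 0.029 in the 6 converted libraries.

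**Figure D3:**
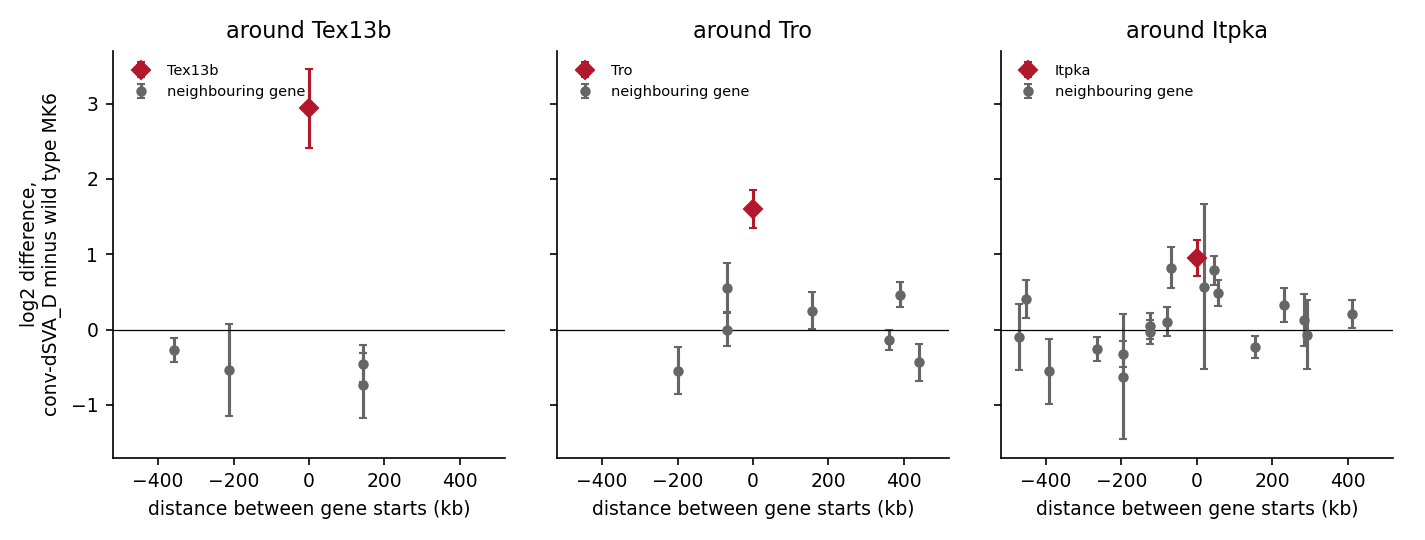
Log2 difference of conv-dSVA_D minus wild type (vertical axis) against distance from the member's start in kb (horizontal axis) for tested protein-coding neighbours within 500 kb, 1 panel per member. Points are limma differences, bars are SE, and the red diamond at distance 0 is the member. Neighbours lie between -0.74 and 0.82, and Tex13b (2.94) and Tro (1.60) stand above all of theirs.

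Relatives of the 3 genes were counted in lists that leave the members out. Of the Tex13 family, 4 genes are in the table and Tex13b alone was above 0: Tex13a, Tex13c1 and Tex13c3 were at 0 in all 7 libraries. Of 7 other type II MAGE genes tested, 0 passed in conv-dSVA_D minus wild type (1 at unadjusted p under 0.05), 0 for conv-dSVA_D minus conv-dSVA_F (0 unadjusted) and 0 for conv-dSVA_D minus conv-dSVA_F&D (2 unadjusted), with 0 by edgeR and DESeq2 in each. Their median against the wild type was 0.25, beside -0.01 over all genes. Maged1, the highest by normalized count, had 2558.94 and 2884.31 normalized counts in conv-dSVA_D and 2916.44 for the wild type. Nsmce3, a subunit of the SMC5/6 complex, had the lowest difference (-0.67 ± 0.20, limma adjusted p = 0.0955).

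Of 15 type I MAGE genes in the table, 6 were at 0 in all libraries and 3 passed the filter, with 0 called in these 3 comparisons (0 at unadjusted p under 0.05, none by edgeR or DESeq2). Mageb4 had 29.77 and 15.51 normalized counts for conv-dSVA_D and 22.92 for the wild type. Mageb16 had the highest normalized count, at 216.05 and 373.09 for conv-dSVA_D and 411.49 for the wild type. Magea4, below the filter and named after its values were seen, had 15.36 and 15.51 normalized counts in conv-dSVA_D, 3.40 and 3.05 for conv-dSVA_F, 2.75 and 0 for conv-dSVA_F&D, and 4.37 for the wild type. Both conv-dSVA_D libraries were highest there too, on few reads. The binding partners of trophinin, Bysl and Troap, stood at 0.10 ± 0.17 and 0.31 ± 0.23 against the wild type (limma adjusted p = 0.807 and 0.497).

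Of other testis and germline genes, none passed upwards against the wild type with limma. Of 14 other X-linked testis genes tested, 0 passed in conv-dSVA_D minus wild type with limma, and none by edgeR or DESeq2. An unadjusted limma p under 0.05 was found for 3 of them, beside 3084 of 15240 genes. With DESeq2, 1 of the 14 was lower against conv-dSVA_F&D, beside 661 genes. The 14 genes had a median of -0.58 against the wild type. The highest by normalized count, without correction for length, were Rhox5, a homeobox gene of the reproductive tract (-2.15 ± 0.54, limma adjusted p = 0.0606), and Tex11, a meiotic gene (-0.81 ± 0.30, adjusted p = 0.161). The Xlr genes in this list are near-identical copies whose reads may be split. Of 20 germline genes off chromosome X, 0 rose and 4 fell against the wild type, beside 2.13% of all genes lower, with a median of -0.94. Those that fell were Dazl, an RNA-binding protein gene (-1.96 ± 0.44), Hormad1, a meiotic chromosome-axis gene (-1.50 ± 0.20), the kinase gene Stk31 (-1.56 ± 0.28) and the co-chaperone gene Fkbp6 (-1.60 ± 0.33), with limma adjusted p between 0.00928 and 0.0421. The Dazl call was lost with DESeq2.

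Hormad1 had 460.9 and 460.45 normalized counts in conv-dSVA_D, 958.95 and 863.21 for conv-dSVA_F, 772.76 and 998.81 for conv-dSVA_F&D, and 1308.69 for the wild type, so its conv-dSVA_D libraries were the lowest. Against conv-dSVA_F, 3 of the 20 fell (Hormad1, Stk31 and Fkbp6), beside 1.08% of all genes lower. Against conv-dSVA_F&D, 1 fell (Hormad1), beside 1.96% lower. When either conv-dSVA_D library was left out, 0 of the 20 passed in any of the 3 comparisons. Against the wild type 2 passed when either conv-dSVA_F library was left out and 4 when either conv-dSVA_F&D library was. Against conv-dSVA_F 0 passed when either of its libraries was left out, and 4 fell when either conv-dSVA_F&D library was. Against conv-dSVA_F&D, 3 rose and 2 fell without its replicate 1, and 2 fell without its replicate 2. With DESeq2 on all 7 libraries, 5 of the 20 were lower against conv-dSVA_F, beside 549 of 15240 genes. Against conv-dSVA_F&D 4 were lower with DESeq2, beside 661 genes. With edgeR 3 and 1 were lower, beside 185 and 298 genes. These comparisons share the conv-dSVA_D libraries.

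Enzymes of the Itpka pathway included 1 gene that rose. Of 16 other inositol phosphate kinases and phosphatases, 1 rose in conv-dSVA_D minus wild type: Itpk1, which phosphorylates inositol phosphates downstream (0.85 ± 0.20, limma adjusted p = 0.047, beside 1.48% of all genes higher; with edgeR 0 passed). Ipmk, the highest of the list by normalized count without correction for length, stood at -0.14 ± 0.14 (adjusted p = 0.616). Itpk1 had 3936.84 and 3320.27 normalized counts in conv-dSVA_D, 3088.73 and 4317.07 for conv-dSVA_F, 2339.35 and 2433.63 for conv-dSVA_F&D, and 2001.78 for the wild type, so conv-dSVA_D and conv-dSVA_F overlapped. In conv-dSVA_D minus conv-dSVA_F, 0 of the 16 passed with limma (2 at unadjusted p under 0.05), while 1 was lower by edgeR and 1 by DESeq2, beside 1.08% of all genes lower and 0.262% higher with limma. In conv-dSVA_D minus conv-dSVA_F&D, Ppip5k1, an enzyme of inositol pyrophosphate synthesis, fell (-1.06 ± 0.23, limma adjusted p = 0.043), 1 of 16 beside 1.96% of all genes lower. The limma calls of Itpk1 and Ppip5k1 were lost when either conv-dSVA_D library was left out, and that of Ppip5k1 also when any other converted library was.

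The paralogs of Itpka had other patterns of level. Itpkb had 18.24 and 13.06 normalized counts in conv-dSVA_D, 108.91 and 63.98 for conv-dSVA_F, 67.75 and 62.69 for conv-dSVA_F&D, and 18.56 for the wild type. It was thus low in conv-dSVA_D and in the wild type, without passing against conv-dSVA_F (-2.36 ± 0.49, limma adjusted p = 0.0524). Itpkc, at 417.69 and 484.12 for conv-dSVA_D and 458.42 for the wild type, differed by -0.03 ± 0.22 (adjusted p = 0.964).

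**Figure D4:**
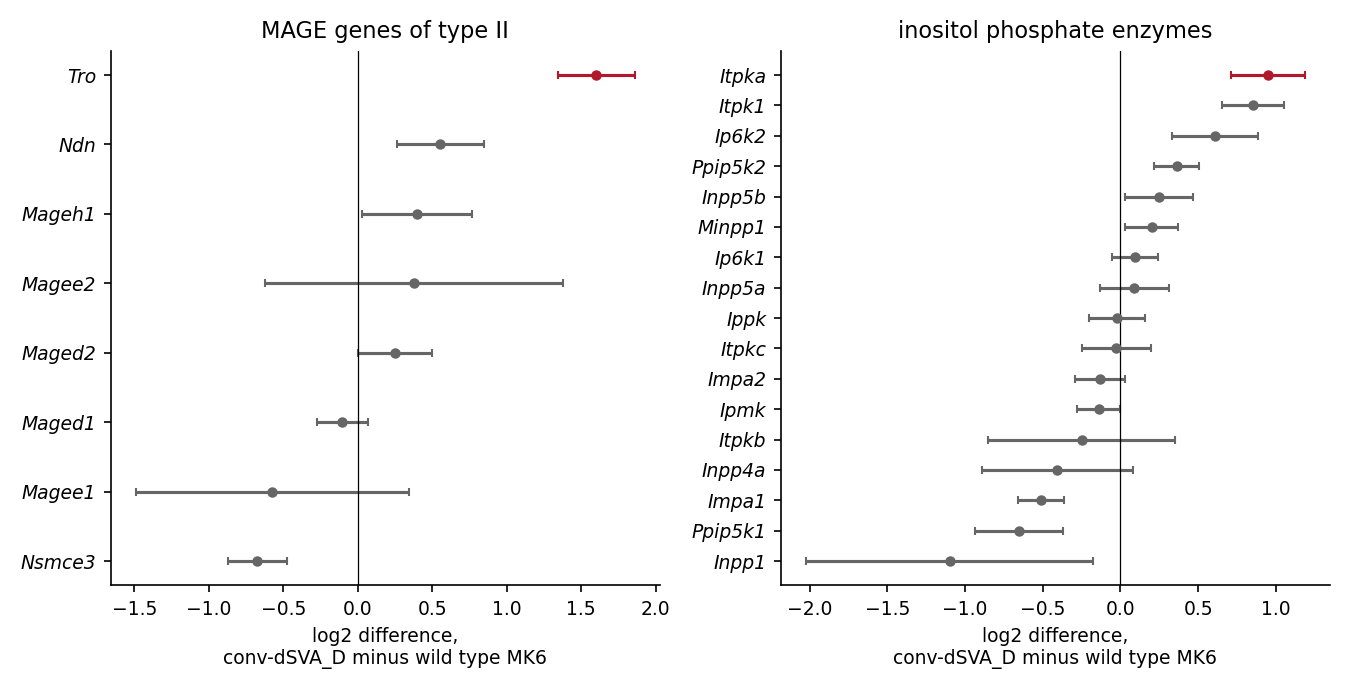
Log2 difference of conv-dSVA_D minus wild type (horizontal axis) for the tested type II MAGE genes (left) and the tested inositol phosphate enzymes (right), 1 row per gene in order of the difference. Points are limma differences and bars are SE. Tro (1.60) and Itpka (0.95) are drawn in red as the genes chosen for their level, and Nsmce3 (-0.67) is at the foot of the left panel.

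Of 11 genes for IP3 production and IP3 receptors, 0 passed in conv-dSVA_D minus wild type with limma (3 at unadjusted p under 0.05, none by edgeR, 1 by DESeq2). The phospholipase gene Plcb3 stood at 0.50 ± 0.21 (limma adjusted p = 0.23) and the receptor gene Itpr1 at 0.65 ± 0.17 (adjusted p = 0.0624). Of 9 neuronal genes, Stmn2, a tubulin-binding protein gene, fell against the wild type (-0.87 ± 0.18, limma adjusted p = 0.0335), beside 2.13% of all genes lower. Stmn2 fell in conv-dSVA_F against the wild type too (-1.03 ± 0.18, limma adjusted p = 0.0279), beside 0.656% of all genes lower. That conv-dSVA_F call was lost when either conv-dSVA_D library or conv-dSVA_F replicate 1 was left out. In conv-dSVA_F&D minus conv-dSVA_F, Stmn2 was higher with limma, beside 1.71% of all genes higher. This call was lost without either conv-dSVA_D library, conv-dSVA_F replicate 1 or conv-dSVA_F&D replicate 2. Tubb3 stood at -0.04 ± 0.30 in conv-dSVA_D minus wild type (adjusted p = 0.959). Ppp1r9b, which encodes the spine protein spinophilin, fell against conv-dSVA_F&D (-1.04 ± 0.19, adjusted p = 0.0238), beside 1.96% of all genes lower. Both conv-dSVA_D calls were lost when either conv-dSVA_D library was left out, and that of Ppp1r9b also without conv-dSVA_F&D replicate 2.

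Of 9 trophoblast genes, the keratin genes Krt8 and Krt18 fell in conv-dSVA_D against all 3 other lines, beside 2.13% of all genes lower against the wild type, 1.08% against conv-dSVA_F and 1.96% against conv-dSVA_F&D (1.21% higher). Krt8 had 67.21 and 93.07 normalized counts in conv-dSVA_D, 1764.74 and 609.32 for conv-dSVA_F, 320.46 and 508.46 for conv-dSVA_F&D, and 437.68 for the wild type. Ascl2, a trophoblast transcription factor, also fell against conv-dSVA_F&D (-1.30 ± 0.28, limma adjusted p = 0.0428). The list's medians were -1.92 against the wild type, -2.36 against conv-dSVA_F and -1.70 against conv-dSVA_F&D. Eomes, a transcription factor gene of the trophoblast, stood the other way at 1.28 ± 0.38 against the wild type (limma adjusted p = 0.0961). When either conv-dSVA_D library was left out, 0 of the 9 passed, and against conv-dSVA_F&D 0 also passed without that line's replicate 2 and 5 without its replicate 1. Against conv-dSVA_F 1 fell without that line's replicate 1 and 4 when either conv-dSVA_F&D library was left out. Against the wild type 1 of the 9 was higher and 2 were lower with DESeq2, beside 469 higher and 579 lower of 15240 genes. DESeq2 called 5 lower against conv-dSVA_F, beside 549 genes, and 7 lower against conv-dSVA_F&D, beside 661. It called 0 of the 9 higher in either of those comparisons.

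Markers of other cell states differed between the lines in the same libraries. The 2-cell-like state is an uncommon state of cultured stem cells in which genes of the cleaving embryo are transcribed. Its 7 markers summed to 64.3 and 78.4 normalized counts in conv-dSVA_D, 813 and 472 for conv-dSVA_F, 571 and 387 for conv-dSVA_F&D, and 1966 for the wild type. All 7 fell in conv-dSVA_D against the wild type (median -4.67), beside 2.13% of all genes lower. Against each of conv-dSVA_F and conv-dSVA_F&D 4 fell, beside 1.08% and 1.96% of all genes lower. Against the wild type 3 and 5 passed without conv-dSVA_D replicates 1 and 2, 5 when either conv-dSVA_F library was left out, and 7 when either conv-dSVA_F&D library was. Against conv-dSVA_F 0 passed when either conv-dSVA_D library or conv-dSVA_F replicate 1 was left out, and 2 without conv-dSVA_F replicate 2. Against conv-dSVA_F&D 0 and 2 passed without conv-dSVA_D replicates 1 and 2, and 3 or 4 without any other converted library. Zscan4 genes are near-identical copies whose reads may be split.

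Primitive endoderm markers, 6 of 7 tested with 0 called, summed to 102 and 104 normalized counts in conv-dSVA_D, 351 and 118 for conv-dSVA_F, 218 and 247 for conv-dSVA_F&D, and 117 for the wild type. Fibroblast markers, 3 of 7 tested, summed to 48.0 and 40.0 for conv-dSVA_D, 78.3 and 63.0 for conv-dSVA_F, 39.4 and 87.8 for conv-dSVA_F&D, and 267 for the wild type, with Lum at 0 in all libraries. Postn was at 0 in all 6 converted libraries and at 57.85 for the wild type. Male germ cell markers, 4 of 8 tested with Dazl lower in conv-dSVA_D minus wild type, summed to 1379 and 1278 for conv-dSVA_D, 2196 and 1808 for conv-dSVA_F, 2752 and 1330 for conv-dSVA_F&D, and 3911 for the wild type. Most of that sum was Dazl, at 914.11 and 831.9 for conv-dSVA_D and 3391.23 for the wild type, and its call was lost when any conv-dSVA_D or conv-dSVA_F library was left out and with DESeq2. Acrbp, an acrosome protein gene of the same list, stood the other way, at 166.12 and 178.79 for conv-dSVA_D and 79.68 to 120.85 in the 5 other libraries (1.10 ± 0.36 against the wild type, limma adjusted p = 0.124). The defining spermatid marker Prm1 was at 0 in every library, as was Acrv1. Of the stem cell markers, Esrrb rose against the wild type (0.81 ± 0.17, limma adjusted p = 0.0351) and Nanog against conv-dSVA_F&D (0.65 ± 0.13, adjusted p = 0.0282), beside 1.48% and 1.21% of all genes higher. Both calls were lost when either conv-dSVA_D library was left out, and that of Nanog also without conv-dSVA_F replicate 2 or conv-dSVA_F&D replicate 2. In the contrasts without conv-dSVA_D, the stem cell marker Sox2 was lower with limma in conv-dSVA_F than in the wild type, beside 0.656% of all genes lower. With DESeq2, 2 of the 8 markers were lower there, beside 459 of 15240 genes. The Sox2 call was lost when any conv-dSVA_D or conv-dSVA_F library was left out. The part of these marker shifts in the levels of Tex13b, Tro and Itpka was not tested.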

How the data were processed

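The strand setting of counting, the annotation used and the role of each tool are not given in the sources used here. Tools listed in the submitters' processing notes are featureCounts 1.6.3, STAR 2.7.3, Trimmomatic 0.36, deepTools 3.1.0, Picard 2.18.20 and DESeq2, with mm10 as the build. The deposited signal holds normalized counts, which the values show to be reads per gene scaled by 1 size factor per library. The step between low values gave back the reads (100% of values above 0 whole to 0.1 read).

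Differences came from limma 3.58.1 (R 4.3.3) with a variance trend on log2(normalized count + 1), for 15240 genes with a mean of at least 10, with 1 mean for each of 4 groups, 3 residual and 6.8 prior degrees of freedom. P-values were two-sided and Benjamini-Hochberg adjusted over all genes, with a threshold of 0.05. The fit was tested on simulated data. Alternatives were other pseudocounts (0.5, 5), other filters (none, a mean of 50), no trend, only the libraries of both sides, edgeR 4.0.16 with TMM, DESeq2 1.42.0 and leaving out each converted library. Positions are from GENCODE (GRCm38), which held 93.1% of the table's names.

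The members and lists were chosen with earlier results of these data known. Named genes are the members, Taf1, the 5 most alike by Pearson r and the 5 most separated (leaving out predicted-gene, Riken, clone and pseudogene names), the nearest tested neighbours, neighbours that passed, and list genes that passed or else those of highest mean normalized count. A few others were named after their values were seen: Zfp422, Padi3, Magea4, Rpap1, Itpkb, Itpkc, Eomes, Acrbp and Postn.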

Additional observations from a re-analysis of the deposited data

How the results depend on the processing

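The genes were chosen as highest in conv-dSVA_D, so the direction of their differences from the other lines was given in advance. Over left-out libraries their sizes moved most for Tex13b against conv-dSVA_F&D (2.382 to 3.804) and Tro against conv-dSVA_F (1.135 to 1.685). The differences of Tex13b, Tro and Itpka between conv-dSVA_D and each other line kept their direction in every alternative run. Differences near 0 did not: Tex13b in conv-dSVA_F&D minus conv-dSVA_F was 0.089 with edgeR, 0.073 with DESeq2 and -0.83 to 0.59 over left-out libraries, and in conv-dSVA_F&D minus wild type 0.048, 0.036 and -0.87 to 0.55. Over left-out libraries Tex13b in conv-dSVA_F minus wild type ran from -0.15 to 0.071, Tro in conv-dSVA_F&D minus conv-dSVA_F from -0.35 to 0.20, and Tro in conv-dSVA_F minus wild type from -0.084 to 0.47. Itpka in conv-dSVA_F minus wild type passed with DESeq2 (-0.78, adjusted p = 0.047).

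Counts of genes past the threshold moved strongly with the processing; the cause was not tested. Against the wild type, conv-dSVA_D had 550 with limma, 996 with no filter, 3 with no trend, 1048 with DESeq2 and 12 to 982 over left-out libraries; conv-dSVA_F had 277, 990, 1, 1035 and 4 to 728; conv-dSVA_F&D had 4, 865, 1, 527 and 0 to 55, and 16 with a pseudocount of 5. In conv-dSVA_D minus conv-dSVA_F the counts were 205, 0 with no filter (3451 at unadjusted p under 0.05), 1 with no trend, 729 with DESeq2, 528 with only both sides' libraries and 0 to 488. In conv-dSVA_D minus conv-dSVA_F&D they were 482, 0 (3823 unadjusted), 0 (2452), 1031, 281 and 0 to 769, and in conv-dSVA_F&D minus conv-dSVA_F 597, 0 (4058), 0 (2535), 1206, 301 and 0 to 881. With edgeR the 6 counts were within 1.5 times of limma's. By Spearman rho, 0, 1 and 2 of the 5 genes most like Tex13b, Tro and Itpka were shared. List and neighbour counts under other tools were added after seeing the data. No paired analysis was possible because the labels carry no replicate numbers.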
